A study of Mus musculus with 12 samples.

Results

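The NG2|EDmut line and its control line were compared in serum-supplemented medium, with 3 libraries of each line, which are 6 of the 12 libraries in the study. The libraries were taken by the line and medium on their labels, and the comparison was made across all genes that passed a filter on low counts. The other 6 libraries, 3 of each line under serum starvation, share the fit and are described only where a result in serum touches them. All cells descend from the mandibular condylar cartilage of C57BL/6J mice aged 10 to 14 days. The cells were immortalized by a retrovirus that carried hTERT, the catalytic subunit of telomerase, with GFP, and 1 fast-growing single-cell clone supplied every experiment. The NG2|EDmut line was made from it with CRISPR/Cas9, which truncated the type VI collagen binding region of the NG2/CSPG4 ectodomain, and was itself grown from a single edited cell. The control line carries the same immortalizing vector and the full ectodomain. One edited clone was therefore set against its parent clone, so each p-value sets the difference against the variation among cultures, which the labels do not describe further, and an effect of the truncation cannot be told apart from other differences between the clones. Both lines were in the same serum-supplemented medium.

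NG2/CSPG4 is a transmembrane chondroitin sulfate proteoglycan found on pericytes, oligodendrocyte precursors and immature cartilage cells. Its large ectodomain binds type VI collagen, a collagen of fine beaded filaments close to the cell surface, and presents growth factors such as PDGF and FGF2 to their receptors. Its short tail binds scaffold proteins inside the cell and is phosphorylated by PKCα and ERK. Fibrochondrocytes of the mandibular condyle are mesenchymal cells that make fibrous and cartilage matrix, and the layer they lie in is continuous with the periosteum of the bone beneath.

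The 6 libraries held 60706135 to 77172479 estimated counts. Levels are given in CPM, the estimated counts scaled to a common library size of 1e6 after TMM normalization. The distance between libraries, the root mean square difference of log2 CPM over the tested genes, was 0.791 between control replicates 2 and 3 and 0.655 to 0.714 among the NG2|EDmut libraries. Control replicate 1 lay 1.033 and 1.084 from the other control libraries in serum and 0.85, 1.037 and 0.958 from the starved control libraries. The libraries nearest to it were thus starved control libraries. Where leaving it out changed the call of a named gene or clearly moved a count of calls, both values are given. The lines lay 1.155 to 1.333 apart in serum. Fibroblast and mesenchymal markers stood at 1 CPM or more in all 6 libraries for 13 of 13 genes. Of the markers of cartilage, aggrecan (Acan) was at 0.821 to 1.34 CPM in the control libraries and at 0 to 0.345 CPM in the NG2|EDmut libraries, whereas Col2a1 was at 31.8 to 46.9 CPM and 10.6 to 22.9 CPM. Among markers of other cells, the 10 macrophage markers summed to 46.6 to 85.9 CPM in control and 10.9 to 16.9 CPM in NG2|EDmut libraries, with 6 of 10 under 1 CPM throughout. Lyz2 supplied most of that sum, at 37.2, 56.3 and 77.4 CPM in the control libraries and 5.71, 9.97 and 9.88 CPM in the NG2|EDmut libraries. Cd14 was lower too, at 4.61, 4.1 and 4 CPM in the control libraries and 2.5, 3.06 and 2.45 CPM in the NG2|EDmut libraries. Cd68 overlapped, at 1.48, 1.11 and 1.39 CPM in the control libraries and 0.704, 1.49 and 1.62 CPM in the NG2|EDmut libraries. Of the 8 macrophage markers tested, 0 were higher and 2 lower at an adjusted p under 0.05 (16.2% of all genes were lower). Without control replicate 1 the count was 1 lower. Their median log2 fold change was -0.7, and the groups did not overlap for 4 of the 8 (41.9% of all genes). The 10 neural and Schwann markers summed to 72.1 to 95 CPM in control and 188 to 209 CPM in NG2|EDmut libraries, and their part in the results was not tested. In bulk RNA, fewer cells of a kind and less RNA per cell cannot be told apart.

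**Figure D1:**
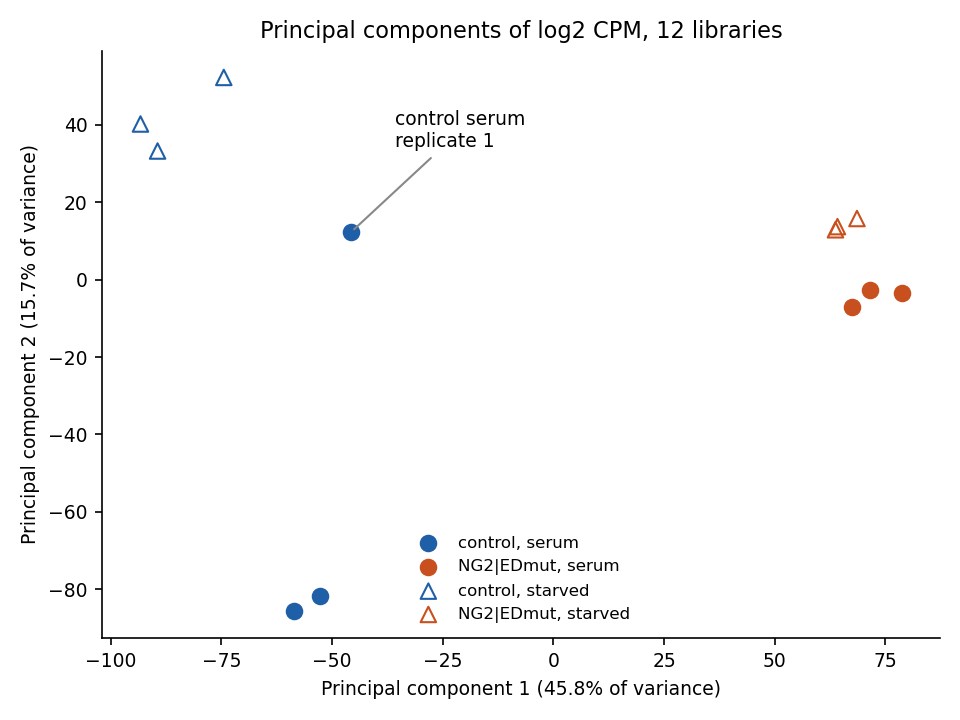
Principal components of log2 CPM over the tested genes for all 12 libraries, with filled circles for serum, open triangles for starvation, blue for control and orange for NG2|EDmut. The first component (45.8% of the variance) separates the lines, and on the second (15.7%) control replicate 1 in serum lies at 12.3, between replicates 2 and 3 (-81.8 and -85.67) and the starved control libraries (33.27 to 52.29).

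Cspg4, which encodes NG2/CSPG4, was checked first. It was measured at 178, 135 and 84.2 CPM in the control libraries and 251, 220 and 151 CPM in the NG2|EDmut libraries. The groups overlapped, since control replicate 1 exceeded NG2|EDmut replicate 3, and the difference did not pass the test (log2 fold change 0.65, SE 0.29, adjusted p = 0.111, edgeR's quasi-likelihood test with Benjamini-Hochberg adjustment). It passed once control replicate 1 was left out (log2 0.92, adjusted p = 0.0263). The deposited value is a total over the gene, so it checks neither line for the truncation. The study's primers show which stretch was screened. They were placed here on the annotated transcript of 8121 bases and 10 exons (GENCODE, build GRCm38, plus strand). The pair used to screen the edited clones is shown first, and the pair used for quantitative PCR second, each written from its own 5′ end, with all bases in lower case because no base was singled out.
Screening pair, forward, chr9:56886525-56886544: acctctgaccagctgatgct
Screening pair, reverse, chr9:56888398-56888417: tccttgaggaaccacgagac
Quantitative pair, forward, chr9:56883559-56883578: tccttcttcggggagaacca
Quantitative pair, reverse, chr9:56883667-56883686: tggtcatcttggcctgctgc
Both screening primers lie in exon 3 (chr9:56885235-56888786), whose 3552 bases are all coding, and they enclose 1893 bases, coding bases 1543 to 3435 of 6981. The quantitative primers lie in exon 2 and enclose 128 bases, upstream of the screened stretch.

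Of 18703 genes tested, 5894 (31.5%) differed between the lines in serum at an adjusted p under 0.05. NG2|EDmut cells had 2873 genes higher (15.4%) and 3021 lower (16.2%). The 3 values of one line lay wholly above or below those of the other for 7834 genes (41.9%), among them 5534 of those called. Changes of at least 4-fold were called for 446 genes upward and 521 downward. Without control replicate 1, 7657 of 19265 genes tested were called (39.7%). Of the 5894 calls, 5445 (92.4%) stood without that library, each in the same direction, 449 were lost and 2212 others appeared. The counts of gene lists given below stand beside these shares of all genes, and no difference between a list and all genes was tested.

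Rises and falls were ranked among genes called with and without control replicate 1, with groups that did not overlap and a mean of at least 50 CPM in the higher line, so that larger changes of less abundant genes are left out here. Ildr2 (log2 5.66), Cadm1 (5.4), Dchs1 (4.99) and Sdk2 (4.92), genes of membrane proteins, had the 4 largest rises of that ranking. Tmem252, which encodes a small membrane protein, was measured at 14.1, 8.48 and 7.48 CPM in the control libraries and 242, 204 and 169 CPM in the NG2|EDmut libraries (log2 fold change 4.35, SE 0.3, adjusted p = 1.45e-06). Pgm5, an adhesion plaque relative of phosphoglucomutase, stood at 29.6, 14.4 and 11.7 CPM in the control libraries and 395, 323 and 277 CPM in the NG2|EDmut libraries (log2 fold change 4.16, SE 0.34, adjusted p = 5.02e-06). Tmem252 (chr19:24674008-24682233) and Pgm5 (chr19:24683016-24861855) are neighbours on chromosome 19. The lack of overlap in both genes was a condition of the ranking. The small heat shock protein gene Hspb1 (log2 3.89, adjusted p = 3.34e-07), Vit, which encodes the matrix protein vitrin (log2 3.86, adjusted p = 8.5e-06, and log2 4.45 without control replicate 1), Hpse, the heparan sulfate cleaving enzyme heparanase (log2 3.74, adjusted p = 1.73e-06), Ncf1, a subunit of the phagocyte NADPH oxidase (log2 3.82, adjusted p = 7.4e-04), and the sarcoplasmic reticulum calcium pump gene Atp2a3 (log2 3.77, adjusted p = 0.00121) rose too. For Ncf1 and Atp2a3 control replicate 1 was the highest control library, at 7.98 and 10.4 CPM against 1.28 to 2.12 CPM in the other libraries of that line, and without it the log2 fold changes were 4.98 and 5.26. For Sdk2 the value without it was 6.09.

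The 12 largest falls of the same ranking ran from log2 -5.15 for Barx1 to -3.62 for Col4a1. Barx1, a homeobox gene of the jaw and tooth mesenchyme, was measured at 42.8, 55.7 and 101 CPM in the control libraries and 1.58, 1.69 and 2.37 CPM in the NG2|EDmut libraries (log2 fold change -5.15, SE 0.35, adjusted p = 1.44e-06). Ptn, which encodes the heparin-binding growth factor pleiotrophin, was at 72.3, 345 and 358 CPM in the control libraries and 7.74, 8.82 and 8.82 CPM in the NG2|EDmut libraries (log2 fold change -4.93, SE 0.48, adjusted p = 1.57e-05). The control libraries of Ptn spread widely, with replicate 1 lowest, and that each exceeded all NG2|EDmut libraries was a condition of the ranking. Gpx3, the secreted glutathione peroxidase, stood at 626, 521 and 633 CPM in the control libraries and 26.8, 38.9 and 52.7 CPM in the NG2|EDmut libraries (log2 fold change -3.91, SE 0.3, adjusted p = 3.49e-06). The complement protease gene C1s1 (log2 -4.1, adjusted p = 7.96e-07), the matrix gene Abi3bp (log2 -4.64, adjusted p = 3.66e-05) and Itga8, the integrin α8 subunit (log2 -4.99, adjusted p = 6.33e-05), fell by more than 4 on the log2 scale. Abi3bp and Itga8 were lowest in replicate 1 among the control libraries, at 30.9 and 11.8 CPM.

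Type VI collagen, the ligand of the truncated region, was lower in NG2|EDmut cells. Col6a1 (chr10:76708792-76726168) and Col6a2 (chr10:76595762-76623630) are neighbours on chromosome 10 and encode the α1 and α2 chains. Col6a1 was measured at 2960, 4930 and 3550 CPM in the control libraries and 515, 491 and 690 CPM in the NG2|EDmut libraries (log2 fold change -2.75, SE 0.21, adjusted p = 2.56e-06). Col6a2 was at 1870, 3920 and 2950 CPM in the control libraries and 359, 364 and 547 CPM in the NG2|EDmut libraries (log2 fold change -2.78, SE 0.25, adjusted p = 1.04e-05), and Col6a3, the long α3 chain, at 867, 2110 and 1150 CPM in the control libraries and 427, 301 and 297 CPM in the NG2|EDmut libraries (log2 fold change -2.01, SE 0.31, adjusted p = 5.02e-04). In all of these chains the lowest control library exceeded the highest NG2|EDmut library, and control replicate 1 was the lowest control library. All 4 tested chains of 6 listed were called lower, and Col6a4 was at 0.602, 1.82 and 0.664 CPM in the control libraries and 0.258, 0.14 and 0.344 CPM in the NG2|EDmut libraries. Col6a5 and Col6a6 did not pass the filter. The median log2 fold change of the 4 chains was -2.4, and -2.61 without control replicate 1, against -0.03 and 0.01 over all tested genes.

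Other binding partners of collagen VI and NG2 moved both ways. Antxr1, a membrane receptor that binds collagen VI, fell (log2 -0.74, adjusted p = 0.00243), and its relative Antxr2, which takes part in collagen VI uptake, rose (log2 0.99, adjusted p = 1.65e-04). Of the collagen-binding integrin subunits, Itga1 was at 19.6, 36.6 and 31.2 CPM in the control libraries and 11.9, 9.56 and 12.1 CPM in the NG2|EDmut libraries and fell (log2 -1.38, adjusted p = 6.86e-04). Itga10 was at 71.4, 56.9 and 46.3 CPM in the control libraries and 163, 158 and 141 CPM in the NG2|EDmut libraries and rose (log2 1.4, adjusted p = 3.33e-04). Itga3, whose product forms a complex with NG2 and galectin-3, fell (log2 -0.78, adjusted p = 0.00495). Fgf2, a growth factor that NG2 binds, was at 13.7, 14.9 and 14.7 CPM in the control libraries and 3.3, 2.8 and 3.3 CPM in the NG2|EDmut libraries and fell (log2 fold change -2.2, SE 0.16, adjusted p = 2.32e-06). Mmp14, a membrane protease that can shed the NG2 ectodomain, fell slightly (log2 -0.61, adjusted p = 0.0017). The focal adhesion kinase gene Ptk2 rose (log2 0.55, adjusted p = 0.00705). In the whole list of NG2 partners and collagen VI, 5 of 31 tested members rose and 10 fell (48.4% called, against 31.5% of all genes), with a median of -0.05.

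Basement membranes are sheets of collagen IV and laminin joined by nidogen and perlecan. The collagen IV chain Col4a2, paired with Col4a1 in the usual network, was at 584, 617 and 474 CPM in the control libraries and 41.7, 41.3 and 54.9 CPM in the NG2|EDmut libraries (log2 fold change -3.6, SE 0.19, adjusted p = 2.8e-07). Lamb1, the laminin β1 chain, stood at 174, 220 and 158 CPM in the control libraries and 50.9, 44.6 and 49.7 CPM in the NG2|EDmut libraries (log2 -1.93, adjusted p = 1.72e-05). Nid1, which links laminin to collagen IV, was at 61.9, 184 and 125 CPM in the control libraries and 49.4, 37.8 and 51.5 CPM in the NG2|EDmut libraries (log2 -1.42, adjusted p = 0.00441), with control replicate 1 nearest to the NG2|EDmut libraries. Nid2 (log2 -1.55, adjusted p = 8.62e-05), the peroxidase gene Pxdn that crosslinks collagen IV (log2 -2.11, adjusted p = 2.74e-05) and the integrin ligand gene Npnt (log2 -2.03, adjusted p = 0.0021) were lower as well. Other chains were higher. Lama1, the laminin α1 chain, was at 31.6, 7.08 and 6.17 CPM in the control libraries and 123, 80.5 and 54 CPM in the NG2|EDmut libraries (log2 2.52, adjusted p = 0.00568, and log2 3.7 without control replicate 1), and Lamb2, the laminin β2 chain, at 222, 184 and 135 CPM in the control libraries and 452, 394 and 395 CPM in the NG2|EDmut libraries (log2 1.2, adjusted p = 9.36e-04). Sparc, a collagen-binding glycoprotein of matrix and basement membrane, was at 8690, 6860 and 5750 CPM in the control libraries and 19200, 20500 and 18700 CPM in the NG2|EDmut libraries (log2 fold change 1.45, SE 0.16, adjusted p = 4.5e-05). P3h2, a prolyl hydroxylase that acts on collagen IV, rose from at most 3.37 CPM in control to at least 27.2 CPM (log2 3.64, adjusted p = 6.1e-06). In all, 7 of 31 tested members rose and 10 fell (54.8% called, against 31.5% of all genes).

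Among fibril-forming and fibril-associated collagens, 1 of 27 tested genes rose and 9 fell (37% called, against 31.5% of all genes), and without control replicate 1 the counts were 5 and 9 of 28. Col1a1, the main collagen of bone and fibrous tissue, was at 23200, 24600 and 18900 CPM in the control libraries and 27000, 28500 and 24300 CPM in the NG2|EDmut libraries and did not pass the test (log2 fold change 0.26, SE 0.13, adjusted p = 0.165). Col3a1, the collagen of compliant fibrous tissue, was at 2480, 5680 and 4330 CPM in the control libraries and 871, 822 and 1060 CPM in the NG2|EDmut libraries (log2 fold change -2.18, SE 0.25, adjusted p = 5.8e-05). Col12a1, which lies on the surface of collagen fibrils, was at 1330, 2780 and 1570 CPM in the control libraries and 370, 277 and 356 CPM in the NG2|EDmut libraries (log2 -2.5, adjusted p = 5.72e-05). Col16a1 (log2 -3.22, adjusted p = 8.98e-06) and Col24a1 (log2 -4.8, adjusted p = 1.8e-05) fell by more than 3 on the log2 scale, and Col2a1, the collagen of cartilage, fell too (log2 -1.36, adjusted p = 0.00298). Col22a1, a collagen of tissue junctions, was the member that rose, with 15.3, 0.483 and 0 CPM in the control libraries and 59.9, 67.6 and 75 CPM in the NG2|EDmut libraries (log2 3.68, adjusted p = 0.0477), and control replicate 1 stood far above the other control libraries (log2 8.1 without it). Col11a2, a cartilage collagen, stood at 147, 11.7 and 7.14 CPM in the control libraries and 163, 195 and 148 CPM in the NG2|EDmut libraries. It passed only without control replicate 1 (log2 4.17, adjusted p = 2.24e-06, against log2 1.61, adjusted p = 0.162 with it).

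Enzymes that modify collagen changed both ways, with 7 of 28 tested genes higher and 7 lower (50% called, against 31.5% of all genes), and with 7 higher and 10 lower without control replicate 1. P4ha3, a prolyl 4-hydroxylase subunit, was at 58.1, 101 and 109 CPM in the control libraries and 7.26, 8.29 and 11.8 CPM in the NG2|EDmut libraries (log2 fold change -3.29, SE 0.26, adjusted p = 3.63e-06), whereas P4ha1, the main subunit, rose (log2 0.91, adjusted p = 1.96e-04). P3h3, a partner of the lysyl hydroxylase complex, fell (log2 -1.5, adjusted p = 2.17e-05) and P3h1, which hydroxylates the fibrillar chains, rose (log2 1.1, adjusted p = 3.76e-05). Pcolce2, an enhancer of procollagen processing, rose from 3.37 to 10.2 CPM in control to 43.6 to 54.5 CPM (log2 2.64, adjusted p = 0.00146).

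Elastic fiber genes were mostly lower, with 2 of 23 tested members of that list higher and 15 lower (73.9% called, against 31.5% of all genes, median -1.06). Fbln5, which brings elastin onto microfibrils, was at 159, 247 and 228 CPM in the control libraries and 56.2, 53.4 and 64 CPM in the NG2|EDmut libraries (log2 fold change -1.87, SE 0.15, adjusted p = 5.02e-06). Emilin1 (log2 -1.42, adjusted p = 1.34e-05), the latent TGF-β binding gene Ltbp3 (log2 -1.73, adjusted p = 7.39e-06) and the crosslinking enzyme gene Loxl1 (log2 -1.53, adjusted p = 2.24e-05) fell with it. Fbn1, the backbone of microfibrils, fell less (log2 -0.75, adjusted p = 0.0236). Lox, the lysyl oxidase that crosslinks collagen and elastin, was one of the members that rose, at 567, 809 and 700 CPM in the control libraries and 1620, 1470 and 1870 CPM in the NG2|EDmut libraries (log2 fold change 1.26, SE 0.15, adjusted p = 6.58e-05), and Ltbp4 was the other (log2 1.42, adjusted p = 3.7e-05).

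Small leucine-rich proteoglycans, which coat collagen fibrils, had 6 of 12 tested members lower and 0 higher (16.2% of all genes were lower). Fmod, fibromodulin, was at 1310, 845 and 701 CPM in the control libraries and 118, 143 and 149 CPM in the NG2|EDmut libraries (log2 fold change -2.8, SE 0.21, adjusted p = 2.65e-06). Bgn, biglycan, was at 4770, 4180 and 3990 CPM in the control libraries and 1380, 1400 and 1600 CPM in the NG2|EDmut libraries (log2 fold change -1.56, SE 0.12, adjusted p = 3.63e-06). Neither gene overlapped between the lines, and leaving out control replicate 1 moved them to -2.5 and -1.48. Aspn, Ogn and Podn fell in the same range (log2 -2.03, -1.65 and -2.45). Omd was at 303, 593 and 637 CPM in control and 175, 174 and 425 CPM in NG2|EDmut libraries and passed only without control replicate 1 (log2 -1.25, adjusted p = 0.0147, against log2 -0.99, adjusted p = 0.0635 with it). Among cell surface proteoglycans Sdc1 fell (log2 -1.84, adjusted p = 4.24e-05) and Gpc1 rose slightly (log2 0.33, adjusted p = 0.0351).

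Of the matricellular proteins, which signal to cells more than they carry load, 7 of 30 tested rose and 13 fell (66.7% called, against 31.5% of all genes). Mgp, an inhibitor of mineral growth in cartilage, was at 71.8, 218 and 254 CPM in the control libraries and 35.7, 42.6 and 42.2 CPM in the NG2|EDmut libraries (log2 -2.17, adjusted p = 7.37e-04), and the matrilin gene Matn2 fell (log2 -0.83, adjusted p = 2.79e-04). Thbs1, a thrombospondin, was at 1060, 1230 and 863 CPM in the control libraries and 1610, 1500 and 1430 CPM in the NG2|EDmut libraries and rose (log2 0.53, adjusted p = 0.0112). Among proteases, Mmp2, a gelatinase, was at 2760, 2710 and 2140 CPM in the control libraries and 792, 840 and 1030 CPM in the NG2|EDmut libraries (log2 fold change -1.52, SE 0.14, adjusted p = 1.19e-05), and the fibroblast protease gene Fap fell (log2 -3.62, adjusted p = 7.54e-05). Timp3, a matrix-bound inhibitor of such proteases, was at 1760, 723 and 537 CPM in the control libraries and 6550, 5240 and 4750 CPM in the NG2|EDmut libraries (log2 fold change 2.45, SE 0.36, adjusted p = 3.15e-04, and log2 3.13 without control replicate 1). Adamts18 (log2 4.01, adjusted p = 1.91e-04) and Adamts12 (log2 1.94, adjusted p = 3.08e-04) rose. In that list 13 of 50 tested genes rose and 14 fell (54% called), and 13 rose and 18 fell without control replicate 1.

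**Figure D2:**
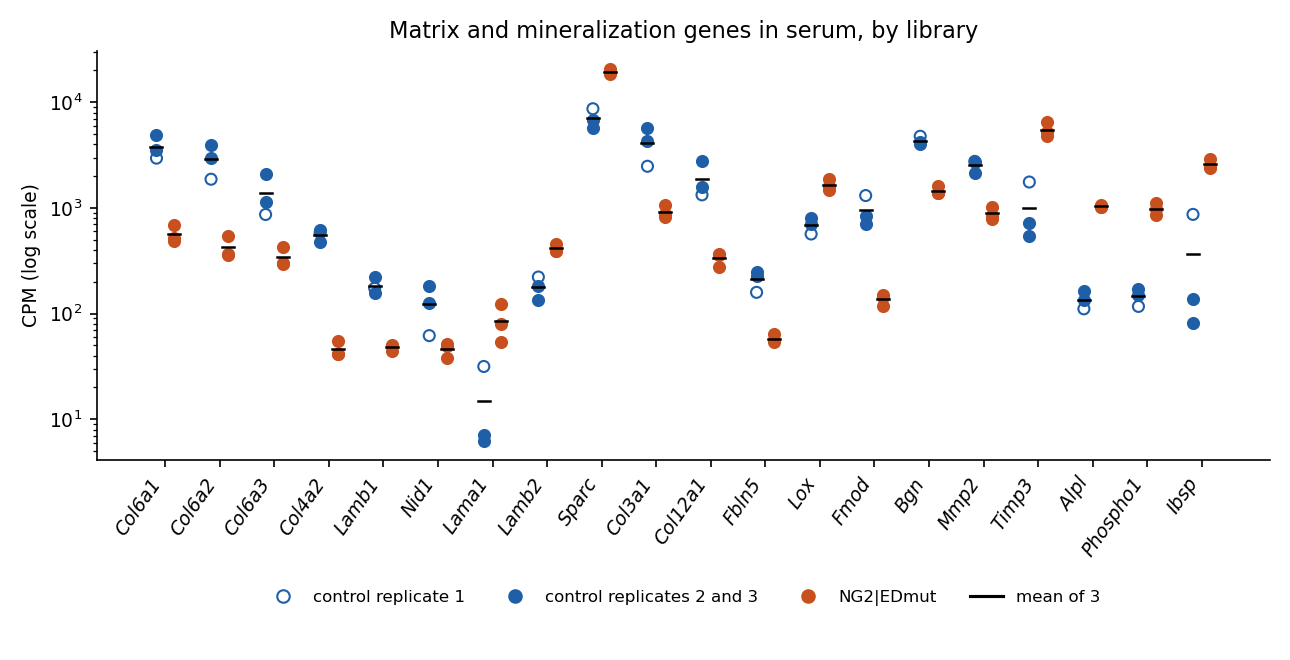
CPM of 20 genes of matrix and mineralization in each serum library on a log axis, blue for control with control replicate 1 open, orange for NG2|EDmut, and a black bar at the mean of 3. The collagen VI chains, Col4a2, Fmod and Mmp2 are lower in all NG2|EDmut libraries, whereas Sparc, Lox, Alpl and Phospho1 are higher in all of them. The open circle of Ibsp (869 CPM) stands above the other control libraries (138 and 81.1 CPM).

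Osteoblast and mineralization genes were called more often than any other whole list with at least 20 tested members (85.3% against 31.5% of all genes). Of 34 tested genes, 20 were higher, 9 lower and 5 not called. Within the cholesterol list, the 20 tested synthesis enzymes alone were called more often (95%). Alpl, the alkaline phosphatase that frees phosphate for mineral, was at 111, 163 and 134 CPM in the control libraries and 1010, 1060 and 1030 CPM in the NG2|EDmut libraries (log2 fold change 2.92, SE 0.28, adjusted p = 1.34e-05). Phospho1, a phosphatase of matrix vesicles, was at 117, 171 and 150 CPM in the control libraries and 977, 1120 and 863 CPM in the NG2|EDmut libraries (log2 fold change 2.75, SE 0.26, adjusted p = 1.51e-05). Smpd3, a sphingomyelinase needed for mineralization, was at 172, 140 and 68.9 CPM in the control libraries and 720, 749 and 696 CPM in the NG2|EDmut libraries (log2 2.51, adjusted p = 0.0026). These genes rose whether or not control replicate 1 was used. Ibsp, bone sialoprotein, was at 869, 138 and 81.1 CPM in the control libraries and 2460, 2930 and 2410 CPM in the NG2|EDmut libraries (log2 fold change 2.84, SE 0.78, adjusted p = 0.0164), and Bglap, osteocalcin, at 108, 21.3 and 26.9 CPM in the control libraries and 209, 187 and 300 CPM in the NG2|EDmut libraries (log2 2.15, adjusted p = 0.00603). In Ibsp and Bglap control replicate 1 exceeded the other control libraries several-fold, and without it the log2 fold changes were 4.57 and 3.27. Of the transcription factors of the osteoblast list, 8 of 10 rose, among them Runx2 (log2 0.69, adjusted p = 0.00289) and Dlx5 (log2 0.85, adjusted p = 0.00167). Mef2c, a factor of osteocytes and growth cartilage, rose (log2 1.85, adjusted p = 4.71e-05). Members that fell included Spp1, osteopontin (log2 -1.57, adjusted p = 0.00445), Msx2 (log2 -2.73, adjusted p = 2.87e-06) and the pyrophosphate-producing enzyme gene Enpp1 (log2 -0.83, adjusted p = 0.0103).

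Chondrocyte genes had 7 of 29 tested members higher and 10 lower (58.6% called, against 31.5% of all genes). Sox9, the main transcription factor of cartilage, was at 33.9, 28.8 and 30 CPM in the control libraries and 21.5, 18.8 and 20 CPM in the NG2|EDmut libraries and fell slightly (log2 -0.62, adjusted p = 0.00146). Sox6, its partner, was at 3.82, 2.19 and 2.51 CPM in the control libraries and 16.5, 15.1 and 13.7 CPM in the NG2|EDmut libraries and rose (log2 2.41, adjusted p = 5.45e-05), whereas Sox5 fell (log2 -1.45, adjusted p = 3.08e-04). Its matrix and signal genes had 3 of 21 higher and 8 lower. Hapln1, the link protein of aggrecan, was at 49.8, 137 and 138 CPM in the control libraries and 41.1, 37.3 and 55.8 CPM in the NG2|EDmut libraries (log2 -1.27, adjusted p = 0.00702), where control replicate 1 overlapped the NG2|EDmut libraries, and Comp, a cartilage glycoprotein, fell (log2 -1.61, adjusted p = 0.0041). Susd5, which encodes a hyaluronan-binding membrane protein, rose (log2 3.6, adjusted p = 5.16e-06). Of the tendon and fibrocartilage list, 8 of 26 tested genes rose and 9 fell (65.4% called). Scx, a tendon transcription factor, rose (log2 0.71, adjusted p = 0.00652), and Cilp2, a matrix protein of cartilage, fell from 20.8 to 30 CPM in control to 1.52 to 2.09 CPM (log2 -3.72, adjusted p = 1.14e-06).

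Of the transcription factors of the facial mesenchyme, 21 of 81 tested genes rose and 31 fell (64.2% called, against 31.5% of all genes). Lhx8, a LIM homeobox gene of the oral jaw, was at 30.2, 24.1 and 25.9 CPM in the control libraries and 1.31, 1.47 and 1.39 CPM in the NG2|EDmut libraries (log2 fold change -4.26, SE 0.13, adjusted p = 1.14e-08). Pitx1, which marks the lower jaw and hindlimb, was at 118, 152 and 200 CPM in the control libraries and 35.1, 38.5 and 42.6 CPM in the NG2|EDmut libraries (log2 -2.01, adjusted p = 9.32e-06). Pax9, a paired box gene of tooth and palate mesenchyme, was at 76.9, 55 and 60.5 CPM in the control libraries and 17, 16.3 and 19.4 CPM in the NG2|EDmut libraries (log2 -1.87, adjusted p = 3.26e-06). None of these genes overlapped between the lines. Alx4 (log2 -1.84, adjusted p = 5.83e-06) and Tbx3 (log2 -2.33, adjusted p = 6.07e-07) fell as well. Foxp1 (log2 1.08, adjusted p = 0.00619) and Zeb1 (log2 0.71, adjusted p = 0.00347) rose. HOX genes are normally silent in the jaw, and 13 of the 28 in the table passed the filter. Of these 3 rose and 5 fell (61.5% called, against 31.5% of all genes), and 2 rose and 4 fell without control replicate 1. Hoxa10 was at 3.79, 2.69 and 2.97 CPM in the control libraries and 0.388, 0.192 and 0.172 CPM in the NG2|EDmut libraries, Hoxa4 at 1.58, 4.49 and 4.88 CPM in the control libraries and 6.27, 7.43 and 7.83 CPM in the NG2|EDmut libraries, and Hoxb9 at 0 CPM in all control libraries against 0.664 to 0.876 CPM.

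In the BMP pathway, whose ligands drive bone formation, 14 of 37 tested genes rose and 9 fell (62.2% called, against 31.5% of all genes). The antagonist genes Bmper (log2 -3.77, adjusted p = 2.01e-05) and Chrdl1 (log2 -2.77, adjusted p = 3.74e-05) fell, while the antagonist gene Nog rose from 0.982 to 2.44 CPM in control to 9.73 to 13.8 CPM (log2 2.95, adjusted p = 2.23e-05). Of the BMP targets, Id1 was at 7.99, 4.35 and 7.27 CPM in the control libraries and 27.2, 27.8 and 32.2 CPM in the NG2|EDmut libraries (log2 fold change 2.15, SE 0.2, adjusted p = 1.33e-05), and Smad6 (log2 0.78, adjusted p = 0.00111) and Smad7 (log2 1.44, adjusted p = 7.12e-05), inhibitors inside the cell, rose. Id4 was the target that fell (log2 -2.42, adjusted p = 1.99e-04). In the TGF-β pathway, Tgfb3 was at 182, 238 and 220 CPM in the control libraries and 69.6, 75.2 and 84.8 CPM in the NG2|EDmut libraries and fell (log2 -1.48, adjusted p = 4.88e-06), Tgfb2 rose (log2 0.9, adjusted p = 4.18e-04), and Lrrc32, which holds latent TGF-β at the cell surface, fell from at least 23.6 CPM to at most 2.37 CPM (log2 -3.9, adjusted p = 2.88e-07).

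Hedgehog signals pass through the receptor PTCH1 and the factor GLI1, both of which are also targets of the signal. Ihh, the ligand of growth cartilage, was at 0.226, 0.145 and 0.0664 CPM in the control libraries and 7.26, 8.72 and 6.61 CPM in the NG2|EDmut libraries (log2 fold change 5.66, SE 0.35, adjusted p = 8.3e-07). Ptch1 was at 41.8, 57.2 and 34.7 CPM in the control libraries and 180, 162 and 125 CPM in the NG2|EDmut libraries (log2 fold change 1.8, SE 0.24, adjusted p = 1.52e-04), and Gli1 at 4.19, 2.46 and 1.96 CPM in the control libraries and 17.2, 19.5 and 12.7 CPM in the NG2|EDmut libraries (log2 fold change 2.52, SE 0.31, adjusted p = 8.55e-05). In these genes every NG2|EDmut library exceeded every control library. The coreceptor gene Boc rose (log2 1.4, adjusted p = 9.4e-05), while the coreceptor genes Gas1 (log2 -1.62, adjusted p = 1.17e-04) and Cdon (log2 -1.28, adjusted p = 0.00433) fell. In all, 4 of 12 tested members rose and 3 fell (58.3% called, against 31.5% of all genes).

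Of the WNT genes, 6 of 51 tested rose and 21 fell (52.9% called, against 31.5% of all genes), and 11 rose and 24 fell without control replicate 1. Receptor genes had 0 of 16 higher and 7 lower, and 2 higher and 8 lower without that library. Those that fell with all libraries included Fzd2 (log2 -1.59, adjusted p = 2.29e-05), Fzd7 (log2 -1.0, adjusted p = 6.65e-05) and the coreceptor gene Lrp5 (log2 -1.49, adjusted p = 4.97e-05). Wnt5a, a ligand that acts mostly outside β-catenin signaling, was at 23.5, 13.5 and 10.3 CPM in the control libraries and 78.2, 74.5 and 71.2 CPM in the NG2|EDmut libraries (log2 fold change 2.24, SE 0.25, adjusted p = 4.49e-05). Tcf7, a transcription factor of the pathway, was at 99.6, 128 and 85.3 CPM in the control libraries and 427, 468 and 385 CPM in the NG2|EDmut libraries (log2 fold change 2.03, SE 0.17, adjusted p = 4.88e-06). Nkd2, an inhibitor inside the cell, was at 34, 268 and 164 CPM in the control libraries and 21.9, 23.5 and 25.4 CPM in the NG2|EDmut libraries (log2 -2.72, adjusted p = 0.0017), and control replicate 1 lay close to the NG2|EDmut libraries. Axin2, a standard target, was at 15.8, 64.1 and 34.5 CPM in the control libraries and 28.6, 27.5 and 23.3 CPM in the NG2|EDmut libraries, where the groups overlapped (log2 -0.53, adjusted p = 0.283). It passed without control replicate 1 (log2 -0.9, adjusted p = 0.00565). The direction turned when control replicate 2 was left out instead, as given in the closing section.

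Growth factor receptors and ligands changed in both directions. In the list of EGF and HGF receptors and ligands 2 of 20 tested genes rose and 6 fell, in that of PDGF, VEGF and angiopoietins 2 of 25 rose and 8 fell (4 and 9 without control replicate 1), and in that of the FGF pathway 5 of 21 rose and 4 fell, or 40% to 42.9% called in each, against 31.5% of all genes. Egfr, the EGF receptor, was at 43.8, 87.7 and 63 CPM in the control libraries and 4.35, 5.95 and 5.82 CPM in the NG2|EDmut libraries (log2 fold change -3.59, SE 0.24, adjusted p = 1.36e-06). Igf1, insulin-like growth factor 1, was at 3.93, 22.6 and 25.8 CPM in the control libraries and 0.445, 0.907 and 0.516 CPM in the NG2|EDmut libraries (log2 fold change -4.79, SE 0.59, adjusted p = 9.48e-05), and Igfbp4, a binding protein that restrains it, was at 430, 501 and 512 CPM in the control libraries and 99.6, 110 and 105 CPM in the NG2|EDmut libraries (log2 fold change -2.2, SE 0.14, adjusted p = 9.59e-07). Igf1 in control replicate 1 was the lowest control value but still above the NG2|EDmut libraries. Pappa2 (log2 -4.18, adjusted p = 1.44e-06) and Pappa (log2 -2.65, adjusted p = 2.81e-04), proteases that cleave such binding proteins, fell too. In the IGF list 3 of 20 tested genes rose and 8 fell (55% called). Pdgfrl, a receptor-like gene of the PDGF family, fell (log2 -4.22, adjusted p = 1.33e-07), and so did the angiopoietin gene Angpt1 (log2 -2.58, adjusted p = 6.51e-04). Fgf10, a ligand of the mesenchyme, rose from at most 1.63 CPM to at least 16.8 CPM (log2 3.75, adjusted p = 2.57e-07).

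Genes that ERK signaling induces and that feed back on it were mostly higher, with 16 of 25 tested higher and 3 lower (76% called, against 31.5% of all genes). Spry1, a Sprouty inhibitor, was at 25.4, 15.5 and 18.2 CPM in the control libraries and 72.2, 60.1 and 76 CPM in the NG2|EDmut libraries (log2 fold change 1.82, SE 0.19, adjusted p = 2.62e-05). Phlda1 was at 11.4, 13.7 and 14.8 CPM in the control libraries and 57.3, 61.7 and 51.4 CPM in the NG2|EDmut libraries (log2 fold change 2.09, SE 0.14, adjusted p = 1.44e-06). The ERK phosphatase gene Dusp6 was at 26.1, 10 and 8.2 CPM in the control libraries and 43.9, 39.6 and 57.9 CPM in the NG2|EDmut libraries (log2 fold change 1.67, SE 0.36, adjusted p = 0.00396), with control replicate 1 highest among the control libraries (log2 2.37 without it). The ETS factor genes Etv4 (log2 1.26, adjusted p = 0.00153) and Etv5 (log2 1.42, adjusted p = 9.06e-04) rose as well. Il17rd (log2 -1.16, adjusted p = 0.00107), Dusp5 (log2 -0.93, adjusted p = 0.0083) and Dusp7 (log2 -0.76, adjusted p = 0.00593) were the members that fell. Of 27 immediate early genes, which respond first to serum and stress, 15 rose and 1, Nr4a3, fell (log2 -0.85, adjusted p = 0.0492), with groups that overlapped (18 rose and 2 fell without control replicate 1). Klf4 was at 137, 86.2 and 71.1 CPM in the control libraries and 567, 573 and 504 CPM in the NG2|EDmut libraries (log2 fold change 2.48, SE 0.21, adjusted p = 6.66e-06), and Egr1 at 103, 25.1 and 29.2 CPM in the control libraries and 136, 114 and 128 CPM in the NG2|EDmut libraries (log2 fold change 1.27, SE 0.41, adjusted p = 0.0348). In Egr1 control replicate 1 reached 103 CPM, near the NG2|EDmut libraries, and without it the log2 fold change was 2.22. In each list 12 members also differed between serum and starvation in the size of the line difference, by the interaction of line and medium, which was called for 821 of all tested genes (4.39%) and for 3901 without control replicate 1.

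Adhesion and guidance genes changed in both directions. Cadherins and immunoglobulin adhesion molecules had 18 of 54 tested members higher and 12 lower (55.6% called, against 31.5% of all genes). Ncam1, a neural adhesion molecule also found in condensing mesenchyme, was at 59.2, 69.8 and 80.4 CPM in the control libraries and 144, 128 and 115 CPM in the NG2|EDmut libraries (log2 0.88, adjusted p = 3.27e-04). Cdh11, the cadherin of osteoblasts and mesenchyme, was at 857, 1050 and 844 CPM in the control libraries and 463, 401 and 531 CPM in the NG2|EDmut libraries and fell (log2 -0.98, adjusted p = 3.91e-04). Integrin subunits had 1 of 21 higher and 9 lower, or 3 higher and 9 lower without control replicate 1, and Itgb8, which activates TGF-β, fell (log2 -2.66, adjusted p = 7.54e-05). Among guidance genes, 17 of 63 rose and 19 fell (57.1% called). Sema3a, a repellent of axons that is also made by bone cells, was at 89.8, 224 and 185 CPM in the control libraries and 26.6, 25 and 29.6 CPM in the NG2|EDmut libraries (log2 fold change -2.62, SE 0.26, adjusted p = 1.89e-05). Its receptor gene Nrp1 rose (log2 1.13, adjusted p = 7.5e-05), and Epha3, an Eph receptor gene, fell (log2 -1.89, adjusted p = 1.38e-05). Prex1, an exchange factor for Rac, was at 22.9, 3.85 and 3.4 CPM in the control libraries and 48, 49.7 and 47.1 CPM in the NG2|EDmut libraries (log2 2.26, adjusted p = 0.0129, and log2 3.74 without control replicate 1), and Vav2 rose (log2 1.34, adjusted p = 6.74e-05).

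Of the contractile and actin genes that depend on the serum response factor SRF, 1 of 30 tested rose, 13 fell and 16 were not called (46.7% called, against 31.5% of all genes), and 22 fell without control replicate 1. The groups did not overlap for 12 of the 30, close to the share of all genes (41.9%). Acta2, smooth muscle actin, was at 1340, 4400 and 5050 CPM in the control libraries and 953, 935 and 1590 CPM in the NG2|EDmut libraries (log2 fold change -1.63, SE 0.4, adjusted p = 0.00883). Myl9, a myosin light chain, was at 171, 747 and 921 CPM in the control libraries and 139, 122 and 216 CPM in the NG2|EDmut libraries (log2 -1.94, adjusted p = 0.00701). In both genes control replicate 1 lay among the NG2|EDmut libraries, so the groups overlapped. Tagln, another smooth muscle gene, was at 132, 561 and 703 CPM in the control libraries and 217, 225 and 419 CPM in the NG2|EDmut libraries and passed only without it (log2 -1.14, adjusted p = 0.00574, against log2 -0.7, adjusted p = 0.277 with it). Csrp2 (log2 -1.95, adjusted p = 6.58e-06) and Fhl2 (log2 -1.79, adjusted p = 1.4e-05), LIM domain genes of this list, did not overlap between the lines. Of the pericyte markers, 1 of 8 tested rose and 3 fell (50% called, against 31.5% of all genes), or 2 and 2 without control replicate 1. Their summed level was 2020 to 5420 CPM in control and 1270 to 1890 CPM in NG2|EDmut libraries, most of it from Acta2 itself, whereas the pericyte marker Mcam was at 1.25, 6.07 and 5.71 CPM in the control libraries and 5.43, 5.48 and 6.45 CPM in the NG2|EDmut libraries, with groups that overlapped.

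The cell cycle lists turned on control replicate 1. Mki67, a marker of dividing cells, was at 41.3, 348 and 287 CPM in the control libraries and 74.7, 50.2 and 64.8 CPM in the NG2|EDmut libraries (log2 fold change -1.83, SE 0.54, adjusted p = 0.0219). Cdk1, the kinase of mitosis, was at 36.5, 323 and 414 CPM in the control libraries and 67.4, 65.8 and 100 CPM in the NG2|EDmut libraries (log2 fold change -1.73, SE 0.59, adjusted p = 0.0411). Control replicates 2 and 3 lay far above the NG2|EDmut libraries in both genes, and control replicate 1 lay below all of them, so the groups overlapped. Across the mitosis list 0 of 42 genes had groups that did not overlap (41.9% of all genes). With all libraries 18 of 42 mitosis genes were called lower and 0 higher (42.9% called, against 31.5% of all genes), with a median of -1.21. Without control replicate 1, 41 of 42 were called lower, with a median of -1.67. For DNA replication the counts were 3 of 42 lower with it (7.14% called) and 36 of 42 lower without it. Without it, 39.7% of all genes were called in either direction. Mcm5, a subunit of the replicative helicase, was at 33, 213 and 168 CPM in the control libraries and 90, 93.1 and 83 CPM in the NG2|EDmut libraries (log2 -0.64, adjusted p = 0.323, and log2 -1.1, adjusted p = 5.45e-04, without it). Prim1, a primase subunit, was at 34.3, 129 and 155 CPM in the control libraries and 28.8, 29.8 and 34.3 CPM in the NG2|EDmut libraries and was called either way (log2 -1.78, adjusted p = 0.00516). The starved control libraries had a mean of 19.5 CPM for Mki67. The growth state of that culture was not tested.

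Regulators of the G1 phase had groups that did not overlap for 15 of 19 genes (41.9% of all genes did not overlap). Ccnd1, cyclin D1, was at 611, 579 and 505 CPM in the control libraries and 1430, 1380 and 1260 CPM in the NG2|EDmut libraries (log2 fold change 1.27, SE 0.11, adjusted p = 6.84e-06), and Cdkn1a, the CDK inhibitor p21, at 273, 244 and 223 CPM in the control libraries and 462, 536 and 507 CPM in the NG2|EDmut libraries (log2 fold change 1.02, SE 0.13, adjusted p = 9.26e-05). Both rose with no overlap between the lines. Ccnd3, cyclin D3, fell (log2 -1.43, adjusted p = 0.00277), as did the CDK inhibitor genes Cdkn1b (log2 -0.66, adjusted p = 0.00154) and Cdkn2c (log2 -1.45, adjusted p = 0.00858), the latter with groups that overlapped. In all, 5 of 19 tested members rose and 9 fell (73.7% called, against 31.5% of all genes), with the same counts without control replicate 1.

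Cholesterol synthesis genes were lower in NG2|EDmut cells, with 0 of 20 tested synthesis enzymes higher and 19 lower (95% called, against 31.5% of all genes). Without control replicate 1 the count was 20 lower, where 39.7% of all genes were called in either direction. Fdps, the farnesyl diphosphate synthase, was at 78.6, 271 and 331 CPM in the control libraries and 37.2, 37.9 and 68.1 CPM in the NG2|EDmut libraries (log2 fold change -2.25, SE 0.42, adjusted p = 0.00176). Cyp51, a demethylase of lanosterol, was at 140, 511 and 473 CPM in the control libraries and 75.1, 65.6 and 121 CPM in the NG2|EDmut libraries (log2 fold change -2.1, SE 0.38, adjusted p = 0.00152). In both of these genes the control libraries lay above the NG2|EDmut libraries, and control replicate 1 was the lowest of them. All 20 synthesis genes also had a called interaction of line and medium, against 4.39% of all genes. Fatty acid genes moved both ways, with 8 of 25 higher and 11 lower (76% called, against 31.5% of all genes). Fasn, fatty acid synthase, fell (log2 -0.99, adjusted p = 0.0105), and Me1, malic enzyme, was at 177, 151 and 155 CPM in the control libraries and 647, 662 and 628 CPM in the NG2|EDmut libraries and rose (log2 fold change 2.01, SE 0.11, adjusted p = 3.48e-07).

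Genes of the amino acid response that ATF4 controls were mostly higher, with 19 of 29 tested higher and 0 lower (65.5% called, against 31.5% of all genes). Without control replicate 1, 24 were higher, where 39.7% of all genes were called in either direction. Trib3, a pseudokinase induced by ATF4, was at 141, 36.3 and 31.6 CPM in the control libraries and 365, 382 and 303 CPM in the NG2|EDmut libraries (log2 fold change 2.33, SE 0.46, adjusted p = 0.00261, and log2 3.37 without control replicate 1). Slc7a11, the cystine transporter, was at 19.9, 13.3 and 9.14 CPM in the control libraries and 58.6, 43 and 34.8 CPM in the NG2|EDmut libraries (log2 fold change 1.69, SE 0.28, adjusted p = 7.33e-04). Asns, asparagine synthetase, was at 318, 163 and 174 CPM in the control libraries and 461, 464 and 474 CPM in the NG2|EDmut libraries (log2 fold change 1.09, SE 0.22, adjusted p = 0.00297). Ddit3, a stress factor downstream of ATF4, was at 334, 72.6 and 69.3 CPM in the control libraries and 316, 311 and 245 CPM in the NG2|EDmut libraries, where control replicate 1 exceeded all other libraries, and it passed only without that library (log2 2.04, adjusted p = 4.18e-07, against log2 0.87, adjusted p = 0.177 with it). Chaperones of the endoplasmic reticulum had 3 of 16 higher and 4 lower, and 8 higher and 6 lower without control replicate 1, with Hspa5 higher (log2 0.73, adjusted p = 0.0372) and Hsp90b1 lower (log2 -0.51, adjusted p = 0.00402).

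**Figure D3:**
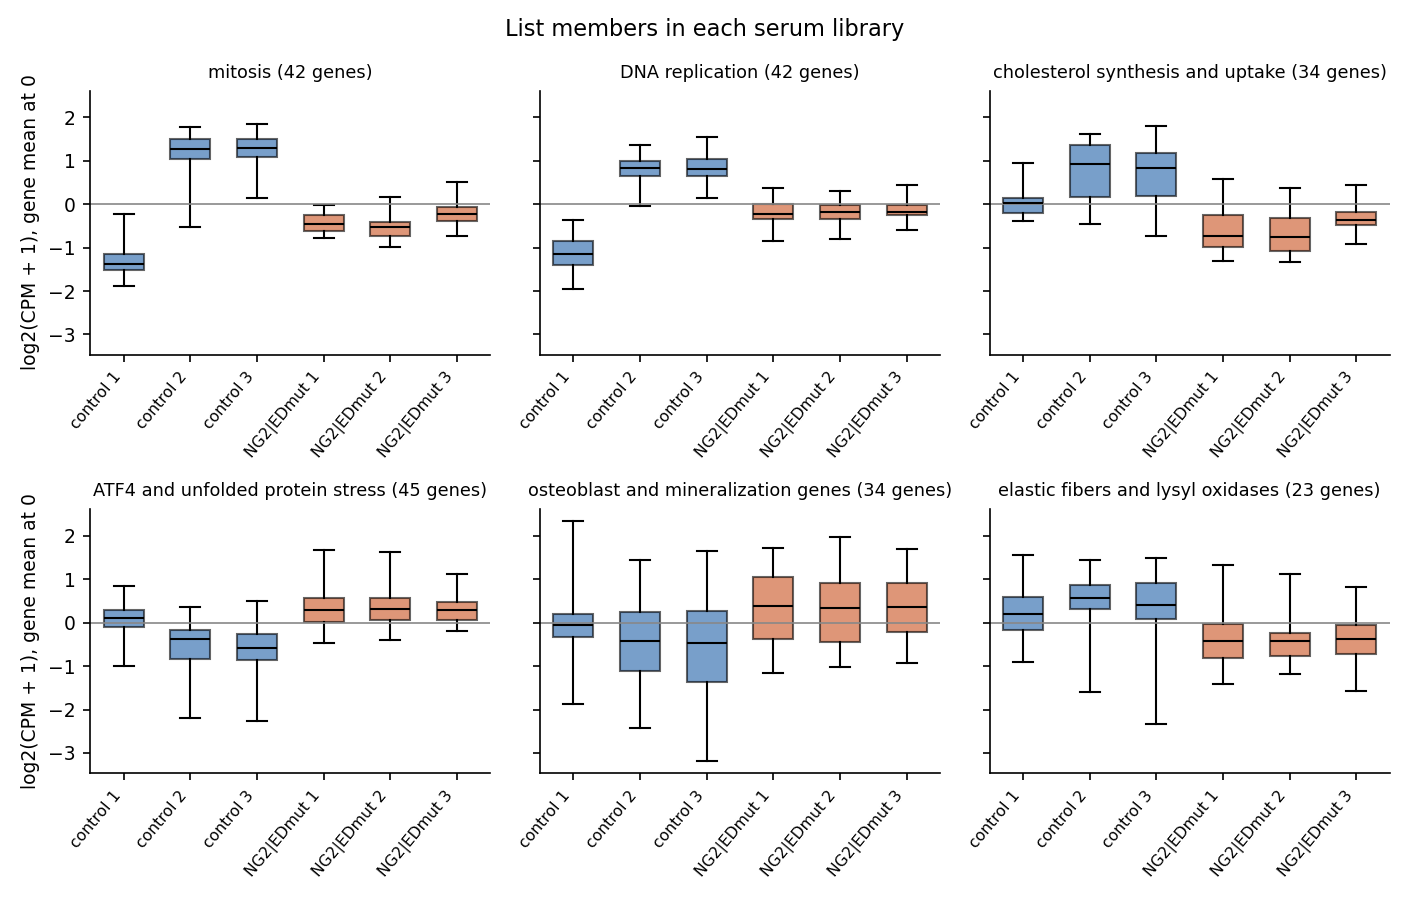
Members of 6 lists in each serum library as log2(CPM + 1) with the mean of the gene over the 6 libraries at 0; the box, blue for control and orange for NG2|EDmut, spans the quartiles, the line is the median and the whiskers reach the lowest and highest gene. The median of the 42 mitosis genes is -1.37 in control replicate 1, 1.26 and 1.3 in control replicates 2 and 3, and -0.53 to -0.22 in the NG2|EDmut libraries.

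Because many members of these lists changed in the same direction, their promoters were searched for a motif each, in the 250 bases before the RefSeq start (build GRCm38.p6) and on both strands. The cell cycle homology region TTTGAA stood in 12 of 36 mitosis genes with a promoter sequence (33.3%), against 18.3% of 27025 genes. It stood in 5 of 34 DNA replication genes (14.7%), 3 of 24 cholesterol genes (12.5%) and 3 of 39 genes of the ATF4 list (7.69%). The C/EBP-ATF response element TGATGNAA stood in 8 of 39 genes of the ATF4 and unfolded protein list (20.5%), against 3.91% of all. It also stood in 3 of 24 cholesterol genes (12.5%), 1 of 36 mitosis genes (2.78%) and 1 of 34 DNA replication genes (2.94%). The sterol regulatory element TCACNCCAC stood in 1 of 24 cholesterol genes (4.17%), which was Hmgcs1, against 1.22% of all. Its counts were 1 of 39 in the ATF4 list (2.56%), 1 of 34 in DNA replication (2.94%) and 0 of 36 in mitosis. None of the motifs contains another, and a match describes these letters only. The stretches around the motif are shown for some called members of each list, on the strand of the gene. Further called carriers, such as Mki67, Top2a, Chac1 and Vldlr, are not shown. Some carriers were not called. Among them were Kif2c (log2 -0.21) and Cdc20 (log2 -0.35) of the mitosis list. Herpud1 (log2 0.5) and Fgf21 (log2 -0.48) of the ATF4 list were others. The first match of each stretch is in capitals, and the Slc7a11 stretch holds another match in lower case.
Prc1, plus strand, chr7:80294416-80294475: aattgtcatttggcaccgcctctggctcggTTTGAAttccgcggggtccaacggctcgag
Cdk1, minus strand, chr10:69352948-69353013: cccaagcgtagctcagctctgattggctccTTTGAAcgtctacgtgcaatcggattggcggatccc
Asns, minus strand, chr6:7693210-7693262: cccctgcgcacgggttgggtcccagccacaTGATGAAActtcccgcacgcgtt
Slc7a11, minus strand, chr3:50443642-50443709: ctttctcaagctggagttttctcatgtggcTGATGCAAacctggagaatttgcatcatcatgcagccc
Hmgcs1, plus strand, chr13:119690184-119690252: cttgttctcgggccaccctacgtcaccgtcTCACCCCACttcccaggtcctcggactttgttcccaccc
Prc1, which bundles spindle microtubules, and Cdk1 were lower (log2 -2.0 and -1.73), Asns and Slc7a11 were higher (1.09 and 1.69), and Hmgcs1, which makes the precursor of mevalonate, was lower (-1.98).

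Energy metabolism changed gene by gene. In glycolysis and hypoxia 14 of 38 tested genes rose and 5 fell (50% called, against 31.5% of all genes), and 16 of 39 rose and 10 fell without control replicate 1. Slc2a1, the glucose transporter GLUT1, was at 28.4, 41 and 39.5 CPM in the control libraries and 105, 90.8 and 83.4 CPM in the NG2|EDmut libraries (log2 fold change 1.36, SE 0.14, adjusted p = 2.61e-05). Pkm, pyruvate kinase, rose (log2 0.71, adjusted p = 0.0124), and Ndrg1, a gene induced by hypoxia, rose (log2 2.13, adjusted p = 9.89e-04, and log2 2.89 without control replicate 1). Oxidative phosphorylation had 2 of 62 higher and 7 lower (14.5% called, against 31.5% of all genes), and 1 higher and 13 lower without control replicate 1. The mitochondrially encoded subunit gene mt-Nd2 was at 2160, 1520 and 2800 CPM in the control libraries and 903, 1090 and 1430 CPM in the NG2|EDmut libraries (log2 -0.92, adjusted p = 0.0166). Mitochondrial genes took 2.21% to 3.95% of the counts of the control libraries and 1.78% to 2.84% of those of the NG2|EDmut libraries in serum. In the NRF2 and antioxidant list 10 of 38 rose and 9 fell (50% called), with the thioredoxin gene Txn1 higher (log2 1.01, adjusted p = 0.00199) and Sod1 lower (log2 -0.88, adjusted p = 4.68e-04).

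In the list of lysosome and autophagy genes 4 of 36 tested genes rose and 14 fell (50% called, against 31.5% of all genes), and 8 rose and 14 fell without control replicate 1. Ctsb, cathepsin B, was at 699, 849 and 896 CPM in the control libraries and 400, 384 and 474 CPM in the NG2|EDmut libraries (log2 -0.96, adjusted p = 1.71e-04). Sqstm1, an autophagy receptor that NRF2 also induces, was at 991, 435 and 427 CPM in the control libraries and 1640, 1650 and 1200 CPM in the NG2|EDmut libraries and rose (log2 1.28, adjusted p = 0.0047), with control replicate 1 above the other control libraries. Interferon and antigen presentation genes had 2 of 45 higher and 20 lower (48.9% called), and 4 of 46 higher and 19 lower without control replicate 1. Stat2, a factor of the interferon response, was at 53.2, 42 and 36.4 CPM in the control libraries and 16.7, 16.3 and 15.4 CPM in the NG2|EDmut libraries (log2 fold change -1.44, SE 0.18, adjusted p = 9.43e-05). Tapbp, which loads peptides onto MHC class I, was at 96.5, 168 and 178 CPM in the control libraries and 38.7, 41.2 and 61.5 CPM in the NG2|EDmut libraries (log2 fold change -1.64, SE 0.23, adjusted p = 2.67e-04). The proteasome subunit gene Psmb8 fell from at least 1.85 CPM to at most 0.115 CPM (log2 -4.62, adjusted p = 3.23e-05). The summed macrophage markers given above, most of which is Lyz2, were lower in NG2|EDmut libraries too, and their part in these counts was not tested.

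In retinoid metabolism 1 of 20 tested genes rose and 8 fell (45% called, against 31.5% of all genes), and 2 rose and 8 fell without control replicate 1. Adh1, an alcohol dehydrogenase that oxidizes retinol, was at 24.5, 37.6 and 38.7 CPM in the control libraries and 0.359, 0.485 and 0.516 CPM in the NG2|EDmut libraries (log2 fold change -6.2, SE 0.36, adjusted p = 4.3e-07). Of 32 tested imprinted genes, expressed from 1 parental copy, 0 rose and 10 fell (31.2% called, close to the 31.5% of all genes), and 1 rose and 11 fell without control replicate 1. Mest was at 120, 180 and 204 CPM in the control libraries and 7.67, 8.36 and 7.05 CPM in the NG2|EDmut libraries (log2 fold change -4.45, SE 0.19, adjusted p = 1.33e-07), Plagl1 at 83.9, 110 and 107 CPM in the control libraries and 20.6, 19.9 and 29.1 CPM in the NG2|EDmut libraries (log2 fold change -2.11, SE 0.16, adjusted p = 2.5e-06), and Igf2 stood at 2.87 to 3.54 CPM in control and 0.172 to 0.516 CPM in NG2|EDmut libraries. Clock genes had 8 of 22 higher and 4 lower (54.5% called), and 12 higher and 4 lower without control replicate 1, with Nr1d1, the repressor REV-ERBα, at 49.8, 25.2 and 23.4 CPM in the control libraries and 97.6, 94.6 and 63.2 CPM in the NG2|EDmut libraries (log2 1.38, adjusted p = 0.00163) and Npas2 lower (log2 -2.38, adjusted p = 1.07e-05).

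**Figure D4:**
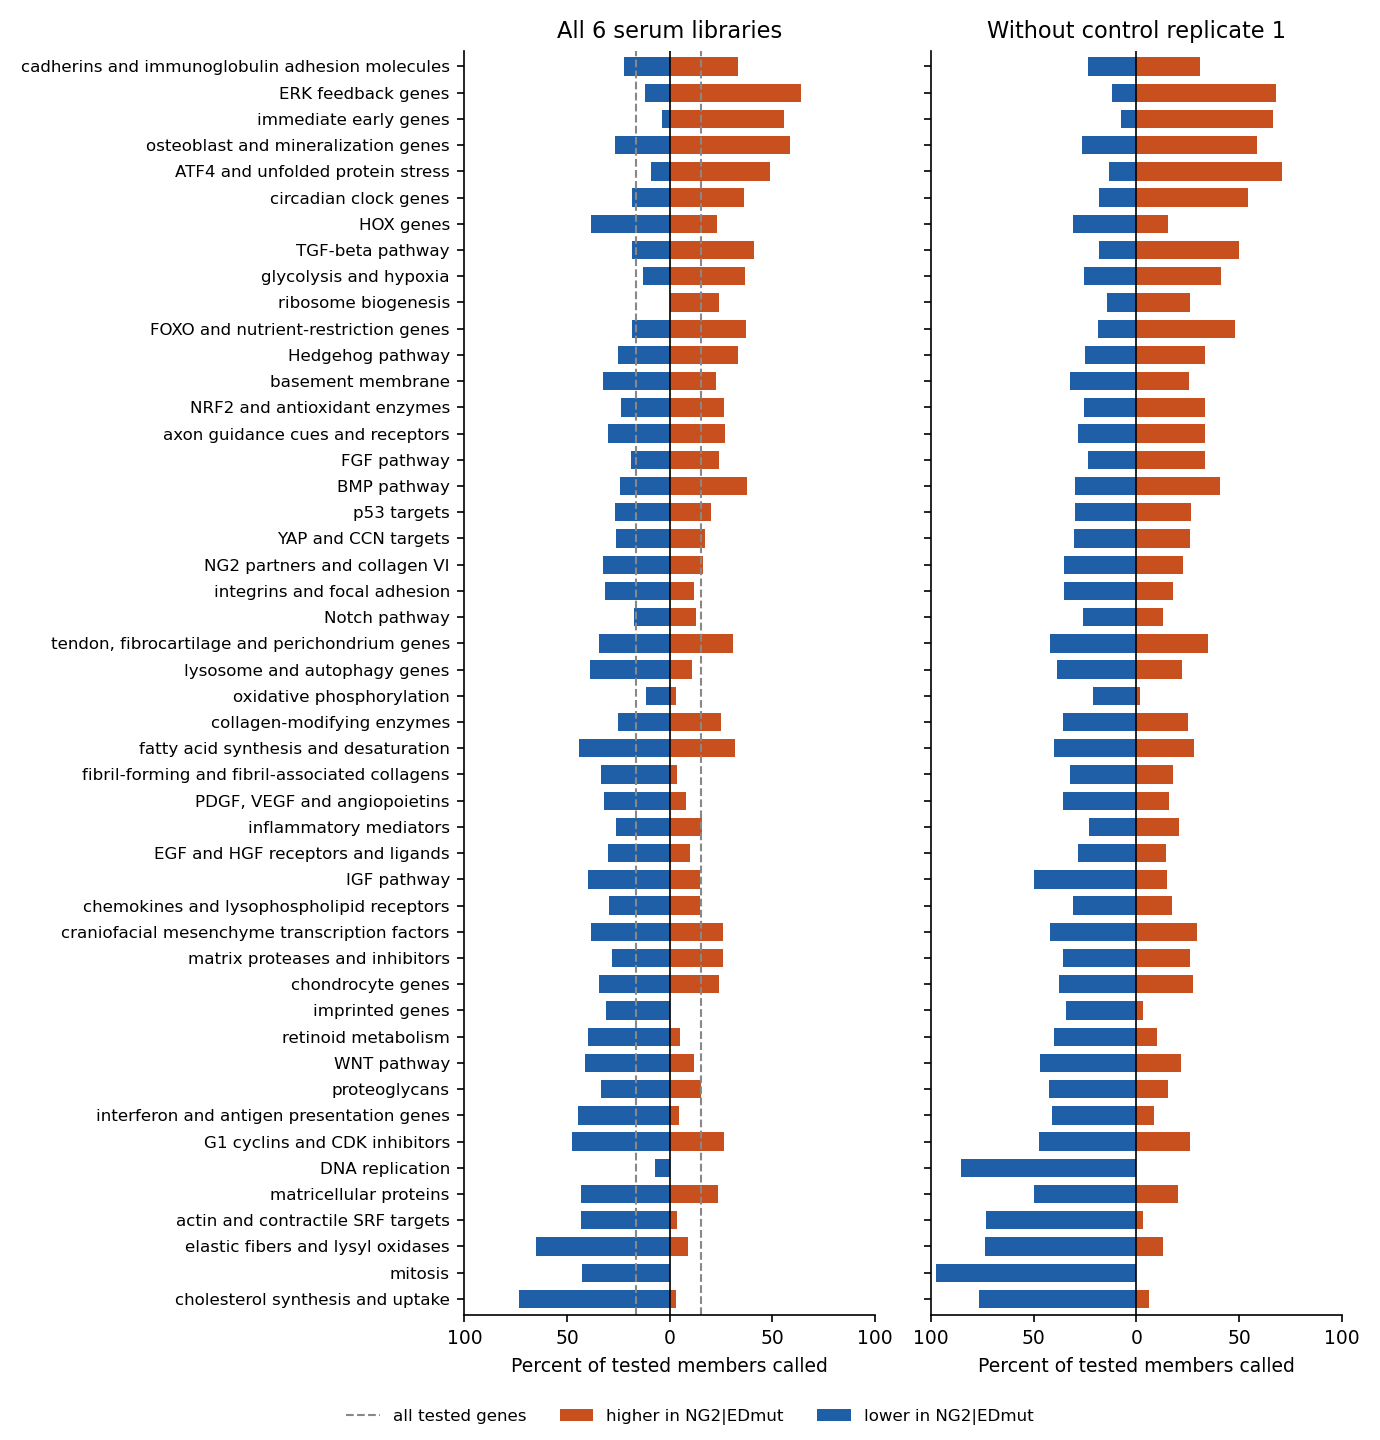
Percent of the tested members of the lists called higher (orange, to the right) or lower (blue, to the left) in NG2|EDmut cells, with all 6 serum libraries and without control replicate 1, ordered by the median log2 fold change; dashed lines in the left panel mark 15.4% higher and 16.2% lower over all genes. DNA replication goes from 3 to 36 of 42 genes lower and mitosis from 18 to 41 of 42 when control replicate 1 is left out.

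Single-copy genes of the Y chromosome were far lower in the NG2|EDmut line. Ddx3y, an RNA helicase, was at 34.1, 31.8 and 24.7 CPM in the control libraries and 1.61, 0.919 and 1.29 CPM in the NG2|EDmut libraries (log2 fold change -4.57, SE 0.22, adjusted p = 2.57e-07). Eif2s3y, a translation factor, was at 29.7, 14.8 and 16.6 CPM in the control libraries and 1.28, 1.15 and 1.69 CPM in the NG2|EDmut libraries (log2 fold change -3.89, SE 0.28, adjusted p = 1.83e-06). Kdm5d, a histone demethylase, was at 18.6, 11.2 and 10.2 CPM in the control libraries and 0.847, 0.613 and 1.1 CPM in the NG2|EDmut libraries (log2 fold change -3.96, SE 0.32, adjusted p = 4.88e-06), and Uty, a relative of the histone demethylase UTX, at 9.47, 8.1 and 7.87 CPM in the control libraries and 0.201, 0.409 and 0.143 CPM in the NG2|EDmut libraries (log2 fold change -5.05, SE 0.46, adjusted p = 9.35e-06). The NG2|EDmut means of these 4 genes were 2.96% to 6.74% of the control means. The same held under starvation, where Ddx3y was at 23.3 to 28.1 CPM in control and 1.22 to 1.55 CPM in NG2|EDmut libraries. Of 11 Y-linked genes tested, 7 fell (16.2% of all genes were lower) and 0 rose. Among those that fell, Gm47283 and Mid1-ps1 fell less, to 48.6% and 52.9% of the control means. Xist, the noncoding RNA of the inactive X chromosome, was low in both lines, at 10.9, 10.1 and 13.1 CPM in the control libraries and 1.45, 4.47 and 1.75 CPM in the NG2|EDmut libraries, and did not pass the test (log2 -2.15, adjusted p = 0.0706). DNA of the lines was not analysed here.

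Whole chromosomes and stretches of them were shifted too. The shift was read from 9859 genes with a mean of at least 10 CPM in either line, whose median log2 fold change was -0.02, in 136 windows of 20 Mb with at least 20 such genes, by the positions in the deposited table. On the X chromosome 87.5% of 304 genes had a value below 0, with a median of -0.62 and window medians from -1.09 to -0.36. On chromosome 3 the median was -0.3, with all 8 windows from -0.39 to -0.24. On chromosome 2 it was 0.18, with all 10 windows from 0.1 to 0.24. Chromosomes 4 and 16 changed along their length. On chromosome 4 the window medians were -0.24 from 0 to 20 Mb, 0.5 to 0.89 over the 5 windows from 20 to 120 Mb, and 0.13 and -0.05 beyond. On chromosome 16 they were 0.42 and 0.52 up to 40 Mb, and -0.38 from 80 to 100 Mb. Of the 74 windows with a median of at least 0.2 in either direction, 74 had the same sign between the lines under starvation, in libraries that share no sample with these. Without control replicate 1 the medians were -0.63 on X, -0.33 on chromosome 3 and 0.28 on chromosome 4, against 0.26 on chromosome 4 with it. Neighbouring genes share a window, so these are descriptions with no test, and no gene above was corrected for its chromosome.

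**Figure D5:**
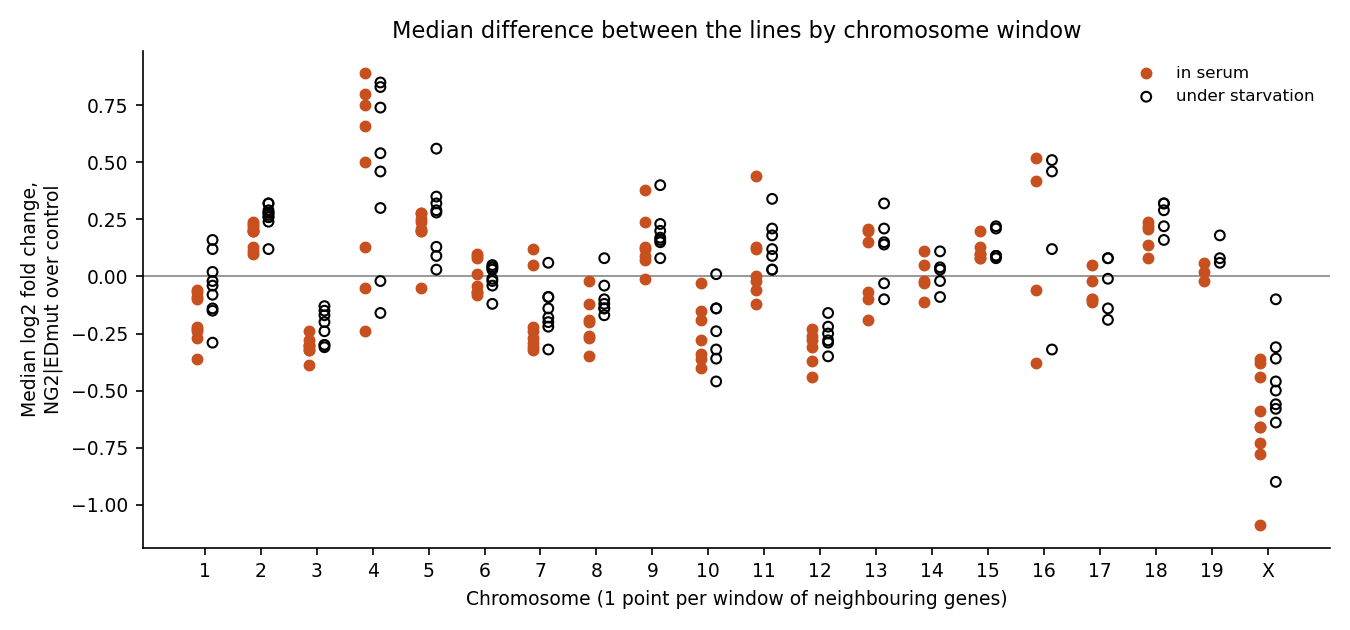
Median log2 fold change of NG2|EDmut over control cells in windows of 20 Mb, 1 point per window, grouped by chromosome, filled for serum and open for starvation. All windows of the X chromosome and of chromosomes 3 and 12 lie below 0, all windows of chromosome 2 above 0, and those of chromosome 4 spread from -0.24 to 0.89.

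A few genes were found in 1 line. With at least 1 CPM in all libraries of one line and under 0.1 CPM in all of the other, 5 genes stood out in NG2|EDmut cells and 0 in control cells. They were named after their values were seen. The forkhead factor gene Foxl2, at 1.22, 2.02 and 1.62 CPM, was at 0 CPM in the control libraries, and so were Rp1, a microtubule gene of photoreceptors (1.68, 2.16 and 1.91 CPM), and Prdm6, a regulator of smooth muscle (3.98, 3.29 and 2.82 CPM). Olig3, a neural bHLH factor (2.34, 1.38 and 1.28 CPM), and Gm765 (2.3, 1.35 and 2.37 CPM) had at most 0.0664 CPM in control.

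The genes below were chosen by rule as those whose call turned on control replicate 1. Those called only with it had their highest control value there. Firre, a noncoding RNA of the X chromosome, was at 75.5, 18 and 18.4 CPM in the control libraries and 11.3, 11.4 and 11.5 CPM in the NG2|EDmut libraries (log2 -1.71, adjusted p = 0.0195, and log2 -0.68, adjusted p = 0.0609, without it). Dnm3os, a noncoding RNA that hosts miRNAs of the mesenchyme, was at 78.5, 17.3 and 33.3 CPM in the control libraries and 13.1, 16 and 17.7 CPM in the NG2|EDmut libraries (log2 -1.46, adjusted p = 0.023, and log2 -0.69, adjusted p = 0.0865, without it). The PDGF receptor gene Pdgfrb, whose product NG2 assists, was at 614, 473 and 344 CPM in the control libraries and 334, 299 and 263 CPM in the NG2|EDmut libraries and missed the threshold once it was left out (log2 -0.45, adjusted p = 0.0537, against log2 -0.68, adjusted p = 0.0215 with it). Snapin (log2 -0.6, adjusted p = 0.0213, and log2 -0.41, adjusted p = 0.053, without it) and Wdfy1 (log2 -0.75, adjusted p = 0.0227, and log2 -0.42, adjusted p = 0.0522, without it) followed the same order. Those called only without it had a value there near the NG2|EDmut libraries. Cdsn, an adhesion protein gene of the epidermis, was at 828, 110 and 102 CPM in the control libraries and 1100, 1170 and 1070 CPM in the NG2|EDmut libraries (log2 3.39, adjusted p = 2.32e-07, without it and log2 1.68, adjusted p = 0.0597 with it). Cyb5r1 was at 275, 80.7 and 84.2 CPM in the control libraries and 278, 282 and 250 CPM in the NG2|EDmut libraries (log2 1.71, adjusted p = 2.13e-07, without it and log2 0.88, adjusted p = 0.0854 with it). Stard5, a sterol-binding protein gene, was at 63.7, 16.2 and 15.2 CPM in the control libraries and 72.2, 72.2 and 61.8 CPM in the NG2|EDmut libraries (log2 2.13, adjusted p = 1.5e-07, without it and log2 1.11, adjusted p = 0.0626 with it). Sspo was at 29, 0.869 and 1.48 CPM in the control libraries and 22, 24.7 and 16.5 CPM in the NG2|EDmut libraries (log2 4.17, adjusted p = 3.49e-07, without it and log2 1.01, adjusted p = 0.423 with it). Kifc1, a mitotic kinesin gene, had the opposite order and was at 21.6, 167 and 166 CPM in the control libraries and 45.6, 43.3 and 47.1 CPM in the NG2|EDmut libraries (log2 -1.88, adjusted p = 1.71e-07, without it and log2 -1.38, adjusted p = 0.0553 with it).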

How the data were processed

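RNA was sequenced from 12 cultures, 3 of each line in serum and 3 under starvation. Per the labels and the paper's methods, the authors checked reads with FastQC, aligned them with HISAT2 and assembled and quantified them with StringTie. The authors deposited 1 table with an estimated count per gene, derived from StringTie coverage, and an FPKM value per gene and library. Not given in the sources used here: tool versions, strand setting, genome build and hours of starvation. Of 29787 genes found in GENCODE M21 (GRCm38), 90.5% had the same start and end, so positions are given in that build.

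Estimated counts were rounded, filtered and TMM-normalized, and fitted over all 12 libraries as 4 groups with edgeR 4.0.16 (R 4.3.3), using its quasi-likelihood test. P-values were Benjamini-Hochberg adjusted over 18703 genes, with a threshold of 0.05. The starved libraries do not enter the serum group means, but they enter the filter, the normalization and the estimate of spread. With only the 6 serum libraries 17401 genes were tested. The interaction compares the line difference in serum with that under starvation. DESeq2 1.42.0 and limma 3.58.1, the latter on log2(FPKM + 0.1), were alternatives, with other filters, scalings and library sets. The fits were also run on simulated data, and the outcome is not reported here. Where a symbol belonged to several genes, the one with most counts was used. The deposited values do not say how reads shared by overlapping genes or near-identical copies were split, so such genes are uncertain.

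The comparison, the gene lists and the naming rule were chosen with earlier results of these data known. The rule gave the targeted gene, the 12 largest rises and falls among genes called with and without control replicate 1 whose groups do not overlap and whose mean reaches 50 CPM in the higher line, up to 4 called members of each list, genes whose call turns on control replicate 1, and the 10 most abundant genes. Of 223 genes named, 114 lie outside it and were chosen after their values were seen. Promoter sequences are from RefSeq (GRCm38.p6).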

Additional observations from a re-analysis of the deposited data

Results flagged for a closer look

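For the genes below, the difference between the lines in serum was not the same as under starvation, by the test of the interaction of line and medium in edgeR with Benjamini-Hochberg adjustment over all tested genes. This was called for 36 of 223 named genes, against 821 of 18703 tested genes (4.39%), and all 36 were also called without control serum replicate 1. The named genes were in large part chosen after their values were seen. Each value is the log2 fold change in serum minus that under starvation.

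Genes of cholesterol synthesis were lower in NG2|EDmut cells in serum and had values above 0 under starvation. The values were -3.55 for Hmgcs1, -3.47 for Fdps and -3.44 for Cyp51. Hmgcs1 had a log2 fold change of -1.98 in serum and 1.57 under starvation. Mitotic genes showed the same turn, with -3.46 for Prc1, -3.2 for Mki67 and -2.97 for Kifc1. So did the WNT pathway genes Nkd2 (-4.17) and Axin2 (-2.55) and the matrix gene Npnt (-3.99).

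Mineralization genes rose in both media, by less in serum, with -3.1 for Smpd3, -2.12 for Phospho1 and -2.03 for Alpl. Alpl had a log2 fold change of 2.92 in serum and 4.95 under starvation. Tcf7 (-1.99) and Gpc1 (-0.69) had the same order. The falls of Sema3a (-1.64), Col6a2 (-1.35) and Col6a1 (-1.11) were larger in serum, and Col2a1 had a value of -1.52. For Col6a1 the log2 fold changes were -2.75 in serum and -1.64 under starvation.

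Genes induced by ERK signaling had values above 0, with 3.95 for Egr1, 3.68 for Dusp6, 2.54 for Etv5, 2.38 for Phlda1, 2.15 for Etv4, 2.05 for Dusp5 and 1.57 for Spry1. Egr1 had a log2 fold change of 1.27 in serum and -2.68 under starvation. Thbs1 (1.1) also turned, from 0.53 in serum to -0.58 under starvation. Nog (1.72) and Fgf10 (1.4) rose more in serum. Enpp1 (3.01), Csrp2 (1.32), Egfr (1.31), Loxl1 (1.15), Mest (0.93), Tbx3 (0.92), Matn2 (0.73) and Lhx8 (0.71) had smaller falls in serum than under starvation.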

How the results depend on the processing

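The number of genes called in serum stayed within 1.5 times of 5894 under DESeq2 (6866), RLE size factors (5908), other filters on low counts (5081 without one and 5714 with at least 10 counts in every library), limma on log2(FPKM + 0.1) (5322) and estimated counts divided by 4 (6096). With only the 6 serum libraries 3976 genes were called, of which 1859 were higher. In that fit 31 of the counts of members higher or lower in the whole lists, markers aside, fell by more than 1.5 times. The other 67 did not. Of the named genes 16 lost their call, 1 gained one and 206 stayed as they were. Requiring a log2 fold change of at least 1 left 2711 genes, 1254 higher and 1457 lower. Leaving out each library in turn gave 4121 to 7657 calls, 2046 to 3765 higher and 2033 to 3892 lower, and the highest count of each came without control replicate 1. Calls of the interaction rose from 821 to 3901 without that library. For Axin2, which was not called, the log2 fold change of -0.53 ranged from -0.9 without control serum replicate 1 to 0.07 without control serum replicate 2. Of the uncalled markers, Cd68 (-0.06) ranged from -0.26 without NG2|EDmut serum replicate 3 to 0.23 without NG2|EDmut serum replicate 1, and Mcam (0.41) from -0.02 without control serum replicate 1 to 0.74 without control serum replicate 2. With only the serum libraries and without control serum replicate 1 they were 0.02 and -0.03. The cause of these shifts was not tested. With the replicate number as a block 5236 genes were called, 2640 higher and 2596 lower. The labels do not say whether the numbers pair the samples. Correlations between same-numbered libraries, each as deviations from its group mean, ran from -0.125 to 0.094. With 3 libraries per group they cannot exclude a pairing. At 60706135 or more counts per library, depth limits mainly genes under 1 CPM.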
